A study of Homo sapiens with 24 samples.

Results

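Neuroendocrine granule and synaptic vesicle genes were followed through RNA sequencing of 4 lung cancer cell lines of human origin, in 24 libraries. They are 42 genes chosen by name, out of 60623 in the tables. The list covers the cargo, the processing enzymes, the membrane and the fusion machinery of secretory vesicles, together with classical neuroendocrine tumour markers. All 42 were matched by Ensembl identifier. The tables of DMS454 and H1694 held all 42, that of A549 held 30 and that of H1299 held 31. A549 and H1299, labelled as lung cancer lines and known as lines of non-small cell lung cancer, were compared as control cells (genotype label WT) and as cells in which HEPACAM2, an immunoglobulin superfamily gene, was overexpressed (OE). DMS454 and H1694, labelled as small cell lung cancer lines, were compared as libraries titled control (genotype label WT) and libraries titled CRISPR (genotype label HEPACAM2 knockdown). Each of the 8 groups had 3 libraries, described as independent biological replicates. The labels give no vector, guide, clone or selection for any arm, so whether an arm is 1 clone or a pool is not given in the sources used here.

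Each A549 library held 16358272 to 29838960 reads, each H1299 library 12704476 to 20332419, and the libraries of DMS454 and H1694 held 15652553 to 30241598 and 19682771 to 31770858. HEPACAM2 itself was at 0.367 ± 0.635 normalized counts in A549 controls and 6007 ± 124 in OE cells, and at 2.88 ± 0.724 and 25322 ± 1795 in H1299 (mean ± SD, n = 3). In the small cell lines it went against the labels, since the libraries labelled CRISPR held more HEPACAM2 mRNA than those labelled control. The means were 11187 ± 314 against 6550.1 ± 124 in DMS454 and 10356 ± 214 against 3557 ± 127 in H1694. Every difference below is OE minus control, or labelled CRISPR minus labelled control, and in each line the first-named arm is therefore the one with more HEPACAM2 mRNA; the directions in DMS454 and H1694 rest on the titles as given. In the files the columns of the libraries titled CRISPR carry the code pL and those titled control the code G, and the fold changes of the authors' deposited table are taken as G over pL there, and as OE over control in A549 and H1299. Whether the titles of the 2 arms are exchanged was not tested; if they are, the sign of every difference in DMS454 and H1694 turns. Control 1 and OE 1 of H1299 and the library labelled CRISPR 3 of DMS454 lay far from the rest of their arms, and members whose call changes without them are given both ways. These libraries were picked out by their values, and leaving them out narrows the spread within their arms. The adjusted p-values without them are therefore likely too small and are given as description. These are bulk RNA samples, in which fewer cells of a type and less RNA per cell cannot be told apart.

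Neuroendocrine cells store peptides in dense-core granules: granins condense the cargo, prohormone convertases and carboxypeptidase E trim it, and calcium entering the cell makes synaptotagmins and SNARE proteins fuse the granule with the plasma membrane. Small synaptic-like vesicles use the same fusion machinery, and neurons and neuroendocrine cells share most of these genes. In the lung they mark the rare pulmonary neuroendocrine cells and small cell carcinoma, where chromogranin A and synaptophysin serve pathologists as diagnostic stains, while the repressor REST keeps many of them silent in other cells.

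The lines were first checked against cell type markers, as TPM (reads per exon length, scaled to the same sum in every library; mean of the 6 libraries of a line). H1694 was high in the neuroendocrine factor NEUROD1 (976 TPM, against 4.31 in DMS454). The zinc finger factor INSM1 was at 1364 TPM in DMS454 and 568 in H1694. INSM1, NEUROD1 and the adhesion molecule NCAM1 were not listed in the A549 table, and INSM1 and NCAM1 not in that of H1299. POU2F3, the factor of the tuft-like subtype, reached no more than 0.022 TPM in either small cell line. REST was at 14.2 TPM in A549 and 17.1 in H1299, and at 0.314 in DMS454 and 2.71 in H1694. Keratin 18 (KRT18) was at 3338 TPM in A549, 655 in H1299, 438 in DMS454 and 5.4 in H1694, and EPCAM, another epithelial marker, at 25.9, 0.543, 700.4 and 4.42 in the same order; both were low in H1694. The leukocyte gene PTPRC had 2 reads over the 6 libraries of DMS454 and 1 over those of H1694, and was not listed for the other lines. The endothelial cadherin CDH5 was at 84.8 TPM in H1694, where the other endothelial genes PECAM1 and VWF were at 0.443 and 0.107.

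By level most of the 42 genes set the small cell lines apart. This is a description with no test, since the tables were normalized separately and TPM were computed within each library. 37 of the 42 reached 10 TPM in DMS454 and 34 in H1694, against 8 in A549 and 11 in H1299. At 100 TPM or more were 19 genes in DMS454, 22 in H1694, 1 in A549 and 2 in H1299. In A549 and in H1299, 21 genes were under 1 TPM or not listed. Some genes went the other way. Among them ENO2 was at 11.2 TPM in DMS454, below A549 (34.1) and H1299 (33.9). RAB3B was at 3.26 TPM in H1694, below A549 (8.56) and H1299 (29.1). The sum over the 42 genes ran from 8733 to 10918 TPM in the 6 DMS454 libraries, from 5415 to 6457 in H1694, and from 887 to 1508 over the 12 libraries of A549 and H1299. UCHL1, a neuronal ubiquitin hydrolase, made up most of that sum in the non-small cell lines, with 738 ± 47.7 TPM in A549 and 832 ± 121 in H1299 (mean ± SD over 6 libraries of both arms). In H1694 it was at 801 ± 56.6.

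The granin secretogranin II (SCG2) was the most abundant of the 42 in DMS454 at 2573 ± 358 TPM, the 19th of all genes in that line. It was followed by UCHL1 (1197 ± 114), the aromatic amino acid decarboxylase DDC (981 ± 90.6), the mitogenic peptide GRP (667 ± 137) and the calcitonin gene CALCA (572 ± 24.6). In the controls UCHL1 (1300.5 ± 3.35 TPM) lay above DDC (957 ± 20.1), and GRP (783 ± 10.02) above CALCA (583 ± 12.2). In the libraries labelled CRISPR neither pair was apart beyond its spread, with 1094 ± 13.7 and 1006 ± 135 TPM, and 551 ± 78.98 and 562 ± 32.00. In H1694 the carboxypeptidase CPE led (999 ± 61.4 TPM), ahead of UCHL1 (801 ± 56.6) and neuron-specific enolase, ENO2 (504 ± 23.2), whose ranges did not overlap. Below them synaptophysin (SYP), CHGB, CHGA, PCSK1N and TAGLN3 lay between 225 and 234 TPM as means of both arms. CHGB was the highest of these 5 in the controls (279.7 ± 5.81) and the lowest in the libraries labelled CRISPR (178 ± 14.7).

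Peptide and amine cargo stood at very different levels in the 2 small cell lines. CALCA had 0 reads in all 6 H1694 libraries, out of 148533875 reads, which allows up to 3 reads in all (counting error only). GRP had 34 reads in H1694 over the 6 libraries, or 1.03 ± 0.621 TPM, and the chaperone of PCSK2, SCG5, had 20 reads, or 0.222 ± 0.146 TPM, against 71.5 ± 14.7 TPM in DMS454. DDC was at 3.01 ± 1.04 TPM in H1694 and the convertase PCSK1 at 2.29 ± 0.95, against 20.1 ± 3.71 in DMS454. In the other direction, STMN2, a microtubule destabilizer of growing neurites, was at 102 ± 11.7 TPM in H1694 and 2.05 ± 0.619 in DMS454. ENO2 was at 11.2 ± 3.53 TPM in DMS454, and the endoplasmic reticulum protein RTN1 was at 109 ± 7.21 TPM in H1694 and 8.16 ± 2.23 in DMS454. SNAP25, STX1A, SYP, SCG3, CHGA and KIF1A were nearer to each other in the 2 lines, with means of 109 to 293 TPM. The secreted peptide precursor VGF was the only gene of the 42 other than UCHL1 to reach 100 TPM outside the small cell lines. It was at 131 ± 52.3 TPM in H1299, against 112 ± 10.1 in H1694 and 35.4 ± 3.01 in DMS454.

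**Figure D1:**
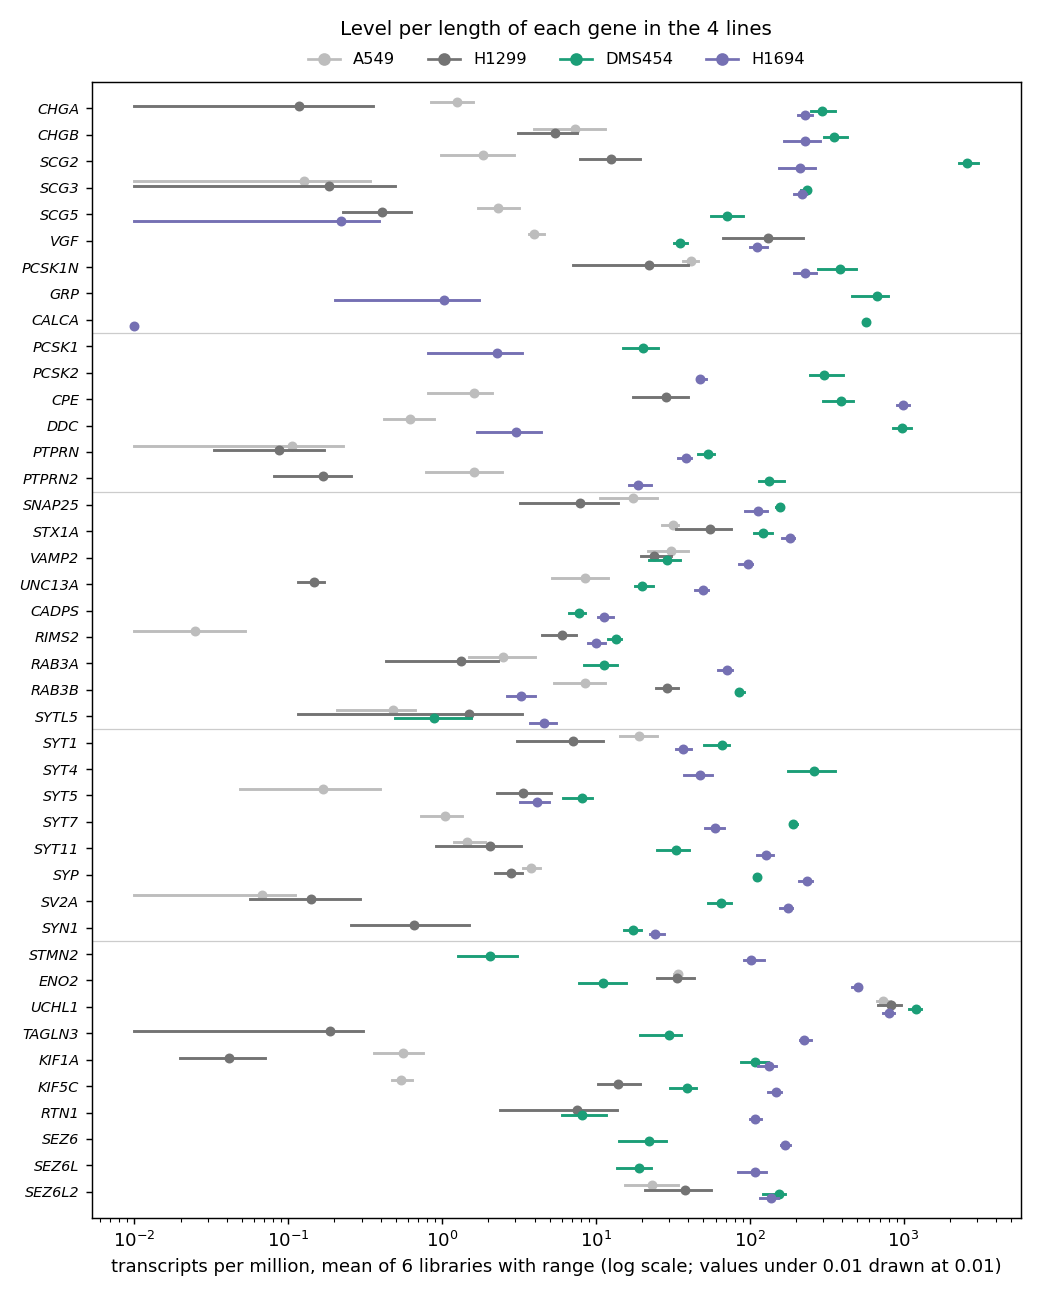
Level of each of the 42 genes in A549, H1299, DMS454 and H1694, as TPM on a log axis (points, mean of the 6 libraries of both arms; lines, lowest to highest library; values under 0.01 are drawn at 0.01, and genes without a point are not listed in that table). The small cell lines lie to the right for most genes, UCHL1 and VGF are high in H1299 as well, and CALCA and GRP are high in DMS454 only.

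Many granule genes are known to be activated through a cyclic AMP response element, and the proximal promoters of the members were searched for it. RefSeq promoter sequences (GRCh38.p14, 250 bases before to 50 after the start, 1 per gene) matched 32 of the 42 genes. The full element TGACGTCA, searched on both strands, was present in 4 of these 32 (12.5%) and in 1.98% of all 27305 promoters of the same length. The shorter TGACG, which the full element contains, was in 17 (53.1%) and 25.01%. The E-box CANNTG was in 24 (75%) and 68.9%, and its form CAGCTG in 4 (12.5%) and 17.7%. GGACAG, a part of the REST element, was in 9 (28.1%) and 20.5%. The 4 stretches with the full element are shown because they belong to a granin, a convertase, a vesicle protein and a secreted peptide of the list. The capitals mark TGACGTCA, all bases lie upstream of the start, and each reads 5′ to 3′ on the strand of its gene.
CHGA (chr14:92923036-92923149, plus strand): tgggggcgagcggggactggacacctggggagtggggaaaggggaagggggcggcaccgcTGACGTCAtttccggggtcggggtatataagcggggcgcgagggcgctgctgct
PCSK1 (chr5:96433258-96433385, minus strand): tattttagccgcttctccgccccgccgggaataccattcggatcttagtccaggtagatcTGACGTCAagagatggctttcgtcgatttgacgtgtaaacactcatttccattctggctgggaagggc
SYN1 (chrX:47619949-47620076, minus strand): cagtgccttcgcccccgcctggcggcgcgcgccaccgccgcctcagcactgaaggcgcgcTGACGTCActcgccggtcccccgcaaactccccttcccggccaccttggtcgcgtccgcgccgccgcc
VGF (chr7:101165581-101165708, minus strand): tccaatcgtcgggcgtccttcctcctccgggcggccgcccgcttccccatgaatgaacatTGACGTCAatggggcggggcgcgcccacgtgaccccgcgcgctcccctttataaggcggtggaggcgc
The element began 54 bases before the start in CHGA, 77 in PCSK1, 79 in VGF and 159 in SYN1. These 4 genes did not move as one: the log2 fold changes of CHGA, PCSK1, SYN1 and VGF were 0.32 (called), 0.057, 0.10 and 0.13 in DMS454, and -0.11, -1.03 (called), -0.088 and 0.23 (called) in H1694. In H1299 SYN1 was at 1.38 (called) and VGF at -0.42, where SYN1 reached a mean of 10 normalized counts in the OE arm alone. In A549 CHGA was at -0.081 and VGF at -0.023. The others were not tested in these lines. A match is a description of the letters and not of binding, which was not measured.

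In A549 cells overexpressing HEPACAM2, the SNARE SNAP25, the priming factor UNC13A, the granin CHGB and the granule membrane gene PTPRN2 were lower by about 1 or more on the log2 scale. A gene was tested where its mean reached 10 normalized counts in either arm, which left 25 of the 42. Of these, 11 fell and 1 rose at adjusted p under 0.05 (limma over all 16707 genes tested, Benjamini-Hochberg), against 21.9% of all genes lower and 22.5% higher. The 11 falls are 44% of the members tested, and the median log2 fold change was -0.30, against -0.0019 over all genes. The remaining 17 genes were below the filter or not listed. In each of the 11 genes that fell, all 3 OE libraries lay below all 3 controls; genes whose arms do not overlap, in either direction, made up 51.8% of all genes. 4 members fell and 0 rose by at least 2-fold, against 3.51% and 2.26% of all genes.

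In the fusion machinery of A549, 4 of 7 tested genes of docking, priming and SNARE function were lower and 1 higher, beside 21.9% and 22.5% of all genes. SNAP25, the plasma membrane SNARE (ENSG00000132639, chromosome 20, 10218830 to 10307418, plus strand, GRCh38), was at 522, 476 and 482 normalized counts in controls 1 to 3 and at 238, 282 and 219 in OE 1 to 3. Every OE library lay well under the lowest control, and the arms did not overlap (-1.01 on the log2 scale, SE 0.08, adjusted p = 4.5e-14). UNC13A, the Munc13 protein that primes vesicles for fusion, was at 789.7, 782 and 869.5 in the controls and 379, 419 and 356 with OE (-1.08 on the log2 scale, SE 0.07, adjusted p = 2.2e-18), again without overlap. The vesicle SNARE VAMP2 went from 788 ± 14.7 to 487 ± 46.8 (-0.70 on the log2 scale, SE 0.06, adjusted p = 1.3e-12). The vesicle GTPase RAB3A fell from 38.3 ± 8.25 to 18.9 ± 1.94 (-0.97 on the log2 scale, SE 0.26, adjusted p = 0.0018). Its relative RAB3B was the single member that rose, from 502 ± 54.8 to 875 ± 42.7 (0.80 on the log2 scale, SE 0.07, adjusted p = 1.4e-13). The plasma membrane SNARE partner STX1A was at 714 ± 88.4 and 751 ± 30.5 and was not called (adjusted p = 0.36).

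Among cargo and granule membrane genes, only the granin CHGB and the phosphatase-like PTPRN2 changed in A549. CHGB (ENSG00000089199, chromosome 20, 5911430 to 5925361, plus strand) was at 322, 317 and 227 in the controls and 155, 126 and 110.1 with OE (-1.14 on the log2 scale, SE 0.13, adjusted p = 1.8e-07). Its highest OE library stayed below the lowest control. PTPRN2, a membrane protein of dense-core granules, was at 70.4, 73.6 and 77.5 in the controls and at 23.7, 24.96 and 28.1 with OE (-1.50 on the log2 scale, SE 0.20, adjusted p = 3.3e-08). This was the largest fall among the members tested in A549. CHGA, SCG2, SCG5, VGF and PCSK1N did not pass, with log2 fold changes of -0.081, 0.049, -0.34, -0.023 and 0.12, nor did CPE (-0.30) or DDC (0.015). The calcium sensor SYT1 fell from 981 ± 31.9 to 591 ± 22.2 (-0.73 on the log2 scale, SE 0.06, adjusted p = 4e-15). The slower sensor SYT7 had a log2 fold change of -0.63, a call that DESeq2 and the removal of control 3, OE 1 or OE 2 each ended. Of the neuronal surface and cytoplasm genes the surface protein SEZ6L2 fell from 800.1 ± 59.6 to 407 ± 13.8 (-0.97 on the log2 scale, SE 0.07, adjusted p = 2.7e-17). The granule motor KIF1A fell from 73.8 ± 5.84 to 43.4 ± 4.81 (-0.76). The abundant UCHL1 fell by a small step from 11153 ± 459 to 10034 ± 418 (log2 fold change -0.15). ENO2 and SYP were not called, with -0.0054 and -0.15 on the log2 scale. Of 5 epithelial markers 4 were lower and 1 higher, against 21.9% and 22.5% of all genes. Their sum was 7681 to 7850.4 TPM in the controls and 7069 to 7382 with OE. Vimentin (VIM), a mesenchymal marker, rose (0.53). Their part in the result was not tested.

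In H1299 cells overexpressing HEPACAM2, the RAB27 effector SYTL5, RTN1, the SNARE SNAP25 and the calcium sensor SYT1 were higher. Of 22 members tested, 14 rose (63.6%) and 1 fell, against 13.5% of all 16192 genes higher and 15.3% lower, and the median log2 fold change was 0.62 against 0.0018 over all genes. For 3 of the risen genes, RAB3A, SYN1 and SYTL5, only the OE arm reached the mean of 10 that the filter asks; of the 19 genes at that level in both arms, 11 rose and 1 fell. Without both libraries numbered 1 the counts were 17 and 1, and all of the 14 rises remained, while the share of all genes called went from 28.8% to 54.9%. The number of rises was 8 without control 2, 9 without control 3, 8 without OE 2, 9 without OE 3 and 8 with the replicate number as a block, under which the fall was not called either. The share of all genes called was 16.5 to 17.6% without these single libraries and 10.1% with the block. 7 members rose and 0 fell by at least 2-fold, against 3.63% and 1.45% of all genes. RAB3A, SYN1 and SYTL5, which passed the filter through the OE arm alone, are among these 7. The arms did not overlap in 16 members that lay higher and 1 that lay lower with OE, and in 43.3% of all genes. The same 3 genes are among the 16. SYTL5, RTN1, SNAP25, SYT1, CPE, STX1A, ENO2 and KIF5C were called under every alternative that sets no minimum fold change.

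SYTL5, an effector of the RAB27 GTPases that tether granules (ENSG00000147041, chromosome X, 38006582 to 38128819, plus strand), showed the largest rise among the members. It was at 6.98, 4.09 and 3.12 normalized counts in the controls and at 82.95, 59.7 and 60.6 with OE (3.62 on the log2 scale, SE 0.32, adjusted p = 0.00018), so every OE library stood far above every control. SYTL5 passed the filter through the OE arm alone. RTN1 was at 107, 89.96 and 84.2 in controls 1 to 3 against 337, 413 and 399 in OE 1 to 3 (2.02 on the log2 scale, SE 0.14, adjusted p = 6.1e-05), and its arms were as clearly apart.

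SNAP25 was at 56.7, 74.6 and 73.8 in the H1299 controls and 243, 187 and 180.1 with OE (1.56 on the log2 scale, SE 0.18, adjusted p = 0.00048). SYT1 was at 139, 126 and 112 in controls 1 to 3 against 331, 333 and 361 in OE 1 to 3 (1.44 on the log2 scale, SE 0.12, adjusted p = 0.00015). Neither gene's arms overlapped, and SYT1 rose by nearly as much as SNAP25. STX1A rose from 768 ± 131 to 1317 ± 40.8 (0.79 on the log2 scale, SE 0.12, adjusted p = 0.0016), so that both plasma membrane SNAREs of the list rose. The vesicle SNARE VAMP2, at 359 ± 5.14 and 442 ± 69.2, did not pass (adjusted p = 0.1). RIMS2, an active zone scaffold, was the one member that fell, from 505 ± 35.8 to 348 ± 37.8 (-0.54 on the log2 scale, SE 0.11, adjusted p = 0.0075). RAB3A rose from 6.99 ± 2.77 to 17.7 ± 3.93 (1.27), and the vesicle phosphoprotein SYN1 from 6.57 ± 2.42 to 19.03 ± 7.67 (1.38). Both rose from low levels, with calls that were lost without control 2, OE 2 or OE 3, among others.

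Of the cargo and processing genes, the carboxypeptidase CPE rose from 292 ± 1.86 to 579 ± 20.4 (0.98 on the log2 scale, SE 0.09, adjusted p = 0.00017). CHGB rose from 99.2 ± 17.7 to 153 ± 18.1 (0.63 on the log2 scale, SE 0.17, adjusted p = 0.026), a call lost without control 2, control 3 or OE 2. PCSK1N, the inhibitor of the convertase PCSK1, was at 142, 69.5 and 55.1 in controls 1 to 3 and at 138, 260.1 and 249.5 in OE 1 to 3. Control 1 lay above OE 1 and the arms overlapped. The gene was called (1.34 on the log2 scale, SE 0.37, adjusted p = 0.03). Its log2 fold change without both libraries numbered 1 was 2.02, and the call was lost without control 2, control 3, OE 2 or OE 3. VGF also depended on these 2 libraries: it was at 3154, 1603 and 1553 in the controls and 937, 1838 and 1916 with OE, with control 1 the highest and OE 1 the lowest of the 6. Its log2 fold change of -0.42 was not called, and without both libraries numbered 1 it turned to 0.25 and was called (adjusted p = 0.00043). The synaptotagmin SYT5 (0.30) and RAB3B (0.16) were not called either and were called higher without both (0.77, adjusted p = 0.0011, and 0.15, adjusted p = 0.023). The 2 libraries were picked out by their values, so adjusted p-values without them are likely too small. Among the neuronal cytoplasm and surface genes all 5 tested rose (against 13.5% of all genes), namely RTN1, SEZ6L2 (0.71), ENO2 (0.61), the kinesin KIF5C (0.55) and UCHL1 (0.27), as log2 fold changes. The calls of SEZ6L2 and UCHL1 were lost without control 2, control 3, OE 2 or OE 3. CHGA stayed at 5.31 or fewer normalized counts in every H1299 library and was not tested. VIM rose here too (0.81, sum 1960.0 to 2296 TPM in the controls and 3788 to 4222 with OE), and its part in the result was not tested.

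The opposite movement in A549 and H1299 was tested as a difference of the differences, fitted over the 12 libraries of both lines. Of 18 members that passed the filter in both tables, 13 differed, against 41.2% of 14578 genes. 12 of them had the lower value in A549, and RAB3B the higher, against 18.5% and 22.7% of all genes. SYTL5 and RAB3A are among the 12, and in H1299 they passed the filter through the OE arm alone. CHGB, RAB3A, SEZ6L2, SNAP25, SYT1 and UCHL1 were each called lower in A549 and higher in H1299, and no member was called in the same direction in both. The shares of all genes called in opposite directions, or in the same direction, in these lines were not computed. For SNAP25 the change in A549 minus that in H1299 was -2.56 on the log2 scale (SE 0.20, adjusted p = 4.5e-07), and for SYT1 it was -2.17 (SE 0.12, adjusted p = 2.3e-08). These 2 genes started from different levels, with controls at 23.05 and 3.79 TPM for SNAP25 and 23.7 and 3.61 for SYT1 in A549 and H1299, and with OE they were at 11.8 and 12.1 and at 14.7 and 10.5. Without both H1299 libraries numbered 1 the number of differing members was 13.

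**Figure D2:**
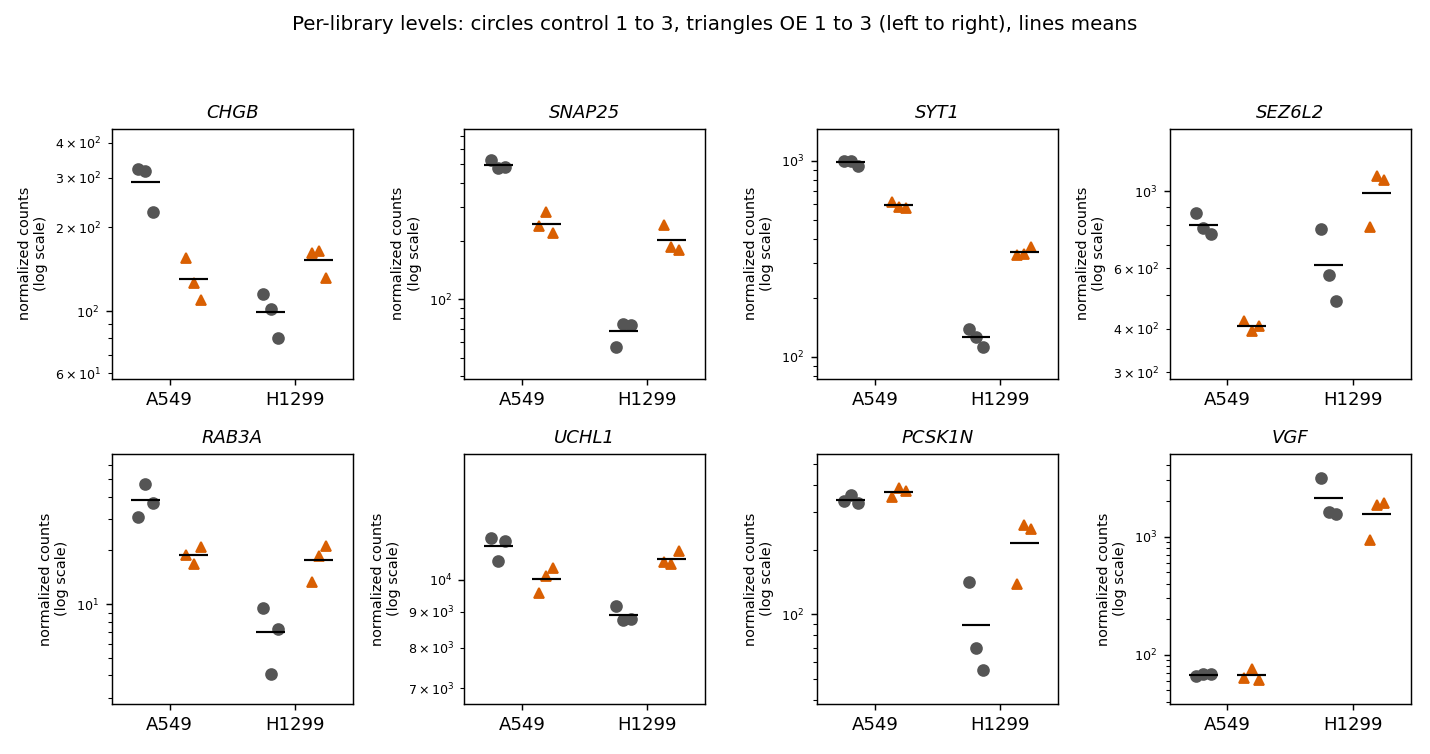
Normalized counts (log axis, its own range in each panel) of 8 genes in the control (circles) and OE (triangles) libraries of A549 and H1299, each arm ordered from replicate 1 to 3 with its mean as a line. CHGB, SNAP25, SYT1, SEZ6L2, RAB3A and UCHL1 are lower with OE in A549 and higher in H1299, and in H1299 control 1 and OE 1 of VGF and PCSK1N lie on the side of the other arm.

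In DMS454 the granins CHGA and CHGB and the synaptotagmin SYT4 were higher, and the peptide GRP, ENO2 and the kinesins KIF1A and KIF5C lower, in the libraries labelled CRISPR, which held more HEPACAM2 mRNA. All 42 members were tested, of which 5 rose and 13 fell, against 9.15% of 18868 genes higher and 9.72% lower. No member changed 2-fold, against 0.753% and 1.09%. With the filter at a mean of 50, 5 of 40 members rose and 13 fell. The share of all genes called was then 24.4%, against 18.9% with the filter at 10. The arms did not overlap in 7 members that lay higher and 16 that lay lower, and in 36.6% of all genes. The median log2 fold change was -0.065, against 0.00036 over all genes, and its median size regardless of sign was 0.2 against 0.163. Without the library labelled CRISPR 3, 15 members rose and 17 fell, and the share of all genes called went from 18.9% to 34.9%. Without any other single library 3 rose, and 10.4 to 12.4% of all genes were called. How often the library labelled CRISPR 3 was the lowest of its arm over all genes was not computed. Among the 42 genes it was the lowest in 26 and the highest in 14. Its median distance from the mean of the other 2 over all genes tested was 0.165 on the log2 scale, against 0.0814 to 0.119 for the other libraries of this line from theirs.

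Granule cargo and its enzymes were among the genes set apart in that library. SCG2 was at 41646, 41406 and 41929.8 normalized counts in the libraries labelled control 1 to 3 and at 50714, 49623 and 41342 in those labelled CRISPR 1 to 3. CRISPR 1 and 2 lay above every control and CRISPR 3 below them all, and the gene was not called (0.18 on the log2 scale, SE 0.07, adjusted p = 0.13; without CRISPR 3 0.27, adjusted p = 3.3e-14). PCSK1N had the same form, at 4038, 4012 and 2506 in CRISPR 1 to 3 against 3209.6, 3179.9 and 3042 in the controls. CPE was at 8106, 8240.0 and 5922 against 7281, 7339 and 7301, and DDC at 20436, 20825 and 17802 against 19755, 19542 and 19093. With SCG5, PCSK1 and SV2A this made 7 genes with CRISPR 1 and 2 above all controls and CRISPR 3 below all. The share of all genes with this form was not computed, so the count does not mark the members out. All 7 rose when CRISPR 3 was left out, by 0.084 (DDC) to 0.38 (SCG5). The convertase PCSK2 went from 11887 ± 261 to 15328 ± 3090.2 (log2 fold change 0.35, adjusted p = 0.24) and reached 0.53 without CRISPR 3 (adjusted p = 9.2e-19). RTN1 (0.43) and SYTL5 (0.77) were likewise called higher only without it (0.61, adjusted p = 2.7e-06, and 0.93, adjusted p = 0.015). HEPACAM2 did not set that library apart in this way, with 11460, 11256 and 10844 normalized counts in CRISPR 1 to 3. CRISPR 3 was picked out by its values, so adjusted p-values without it are likely too small.

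CHGB was at 9463, 9199 and 8942 in the libraries labelled control and 12036, 11612 and 9701 in those labelled CRISPR (0.27 on the log2 scale, SE 0.07, adjusted p = 0.031). All 3 of the latter were above all controls. Its call was lost without each of the controls, without CRISPR 1, without CRISPR 2 and with no filter. CHGA, the diagnostic granin, rose from 5125 ± 87.8 to 6433 ± 601 (0.32 on the log2 scale, SE 0.06, adjusted p = 0.0028), and the granule membrane gene PTPRN2 from 3693 ± 59.9 to 4472 ± 418 (0.27). SYT4, a synaptotagmin of dense-core granules, rose most, from 5367 ± 158 to 9443 ± 218 (0.82 on the log2 scale, SE 0.04, adjusted p = 1.6e-07), with CRISPR 3 at the level of the other 2. The fifth rise, STX1A (0.16), was lost under 7 alternatives.

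GRP was at 4464, 4222 and 4284 in the libraries labelled control and 3173, 3012 and 2605 in those labelled CRISPR. The arms did not overlap, and the fall was called under every alternative that sets no minimum fold change (-0.57 on the log2 scale, SE 0.06, adjusted p = 0.00014). CALCA, the other peptide gene, was at 8372, 7875 and 7892 in controls 1 to 3 against 7167, 6905 and 8470.1 in CRISPR 1 to 3. CRISPR 3 was the highest library of the 6 and the gene was not called (-0.10 on the log2 scale, adjusted p = 0.33). Without CRISPR 3 it was called lower (-0.19, adjusted p = 4.2e-06). CALCA and its near relative CALCB resemble each other in sequence, so a split of reads between them cannot be told from the tables; CALCB rose from 429.8 ± 32.3 to 528 ± 42.6 (0.30). UCHL1 was at 19555, 18879.5 and 19309 in controls 1 to 3 against 15286, 14960 and 16746 in CRISPR 1 to 3 (-0.30 on the log2 scale, SE 0.04, adjusted p = 0.00055), lower in all 3 libraries labelled CRISPR.

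Neuronal cytoplasm, transport and surface genes fell in 6 of 10 in DMS454 and rose in 0, against 9.72% and 9.15% of all genes. ENO2 went from 397 ± 35.5 to 217 ± 14.8 (-0.87 on the log2 scale, SE 0.10, adjusted p = 0.0001). The neuronal surface protein SEZ6 fell from 904 ± 38.1 to 542 ± 116 (-0.76), and the actin-binding TAGLN3 from 398 ± 21.1 to 281 ± 42.2 (-0.51). Both kinesins that carry vesicles along axons were lower, KIF1A from 13582 ± 337 to 9597 ± 559.7 (-0.50) and KIF5C from 2561 ± 98.02 to 2048 ± 163 (-0.32). In the fusion machinery VAMP2 fell from 728 ± 33.4 to 493 ± 84.3 (-0.57 on the log2 scale, SE 0.10, adjusted p = 0.0028). SNAP25, at 3452 ± 61.7 and 3256 ± 46.1, did not pass (-0.084 on the log2 scale, adjusted p = 0.18). Without CRISPR 3, SNAP25 (-0.10, adjusted p = 0.034), RAB3A (-0.45, adjusted p = 0.017) and RAB3B (-0.12, adjusted p = 0.0041) were called lower. RAB3A (-0.36) and RAB3B (-0.089) had not passed with it. SYT1 (-0.28), SYT5 (-0.45; lost without any single library but CRISPR 3) and SYT11 (-0.54) fell beside the rise of SYT4. PTPRN (-0.20) and the priming factor CADPS (-0.20) fell by small amounts, the latter with a call that 9 alternatives ended. SYP and SYN1 did not pass, with -0.053 and 0.10.

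In H1694 the granins CHGB and SCG2 were lower in the libraries labelled CRISPR, again the arm with more HEPACAM2 mRNA, while the sensor SYT7 and the granule membrane gene PTPRN2 were higher. Of 39 members tested, 6 rose and 11 fell, against 8.73% of 17780 genes higher and 8.9% lower, and the median log2 fold change was -0.047 against -0.000955 over all genes. The median size regardless of sign was 0.135 against 0.139. By at least 2-fold 0 rose and 1 fell, against 0.411% and 0.928% of all genes. The arms did not overlap in 8 members that lay higher and 16 that lay lower, and in 35% of all genes. GRP, CALCA and SCG5 were below the filter. With the filter at a mean of 50, 6 of 39 members rose and 11 fell. The share of all genes called was then 22.1%, against 17.6% with the filter at 10. The number of falls was 7 without control 1, 6 without control 2 and 7 without CRISPR 2, and the share of all genes called was then 10.3 to 10.9%, against 17.6% with all libraries. Without CRISPR 1 it moved the other way, with 14 falls and 5 rises, and 25.3% of all genes were called.

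CHGB was at 8051, 8232 and 8272 normalized counts in the libraries labelled control 1 to 3 and at 5684, 5375 and 5391 in those labelled CRISPR 1 to 3. Each arm was tight and the arms lay far apart (-0.58 on the log2 scale, SE 0.04, adjusted p = 5.5e-08). SCG2 fell by as much, from 4536 ± 53.7 to 3090.1 ± 117 (-0.55 on the log2 scale, SE 0.04, adjusted p = 1.9e-07), and both genes were called under every alternative that sets no minimum fold change. PCSK1N was at 2330.3, 2176 and 2151 in controls 1 to 3 against 1915, 1811 and 1941 in CRISPR 1 to 3, lower in all 3 libraries labelled CRISPR (-0.23 on the log2 scale, SE 0.05, adjusted p = 0.0033). CHGA was at 5008, 4707 and 4889 in controls 1 to 3 against 4531, 4437 and 4545 in CRISPR 1 to 3. Its arms did not overlap, but it was not called (-0.11 on the log2 scale, SE 0.04, adjusted p = 0.068). VGF went the other way, from 1849 ± 70.3 to 2171 ± 115 (0.23 on the log2 scale, SE 0.05, adjusted p = 0.0047).

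The convertase PCSK1 had the largest change among the members in H1694. It was at 102, 96.1 and 118 in the libraries labelled control and at 66.6, 64.3 and 30.6 in those labelled CRISPR, of which CRISPR 3 was the lowest. PCSK1 fell (-1.03 on the log2 scale, SE 0.27, adjusted p = 0.026), and without CRISPR 3 the log2 fold change was -0.67. The arms did not overlap, but the call was lost when any of the 3 controls was left out. DDC fell from 78.1 ± 9.65 to 45.97 ± 10.1 (-0.77), also from a low level, and its call was lost without control 1, control 2 or CRISPR 2. CPE, the most abundant member, was at 19342, 18941 and 19133 in controls 1 to 3 against 20803, 19905 and 19181 in CRISPR 1 to 3 and did not pass (0.06 on the log2 scale, SE 0.04, adjusted p = 0.31). PTPRN2 rose from 526 ± 16.2 to 671 ± 56.3 (0.35 on the log2 scale, SE 0.07, adjusted p = 0.003).

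In the fusion machinery of H1694, SNAP25 fell from 2769 ± 31.9 to 2227 ± 7.6 (-0.31 on the log2 scale, SE 0.04, adjusted p = 6.2e-05). VAMP2 rose from 1918 ± 155 to 2288 ± 117 (0.26 on the log2 scale, SE 0.06, adjusted p = 0.0074), a call lost without control 2. STX1A did not pass (-0.034). Among the synaptotagmins SYT4 fell (-0.33) and SYT7 rose (0.32). SYP was at 7992, 8366 and 8259 in controls 1 to 3 against 8148, 7864 and 7819.9 in CRISPR 1 to 3, with overlapping arms (adjusted p = 0.44). ENO2 was at 14205, 14238 and 14518 in controls 1 to 3 against 14179.9, 14323 and 14170.1 in CRISPR 1 to 3, also overlapping (log2 fold change -0.0096). TAGLN3, an actin-binding protein, was at 2533, 2613 and 2535 in controls 1 to 3 against 2898, 2706 and 2751 in CRISPR 1 to 3 (0.12, adjusted p = 0.068). UCHL1, at 12499.8, 12347 and 12691 in controls 1 to 3 against 11518, 11426 and 12092 in CRISPR 1 to 3, lay lower in the libraries labelled CRISPR without passing (adjusted p = 0.079). The surface protein SEZ6L fell (-0.37 on the log2 scale, SE 0.05, adjusted p = 4.3e-05), and KIF1A (-0.15) and SEZ6L2 (-0.14) fell by small amounts, with calls lost without control 1, control 2 or CRISPR 2. The call of SEZ6L2 was also lost with DESeq2 and without control 3 or CRISPR 3. RAB3B fell (-0.30), and RIMS2 (0.21) and STMN2 (0.19) rose, each with a call that DESeq2 and several left-out libraries ended.

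The differences of the small cell lines were set against each other in the same way, and 18 of 39 members differed, against 20.2% of 15460 genes. 7 had the higher value in DMS454 and 11 the lower, against 10.4% and 9.81% of all genes. SYT4 rose in DMS454 and fell in H1694, and the change in DMS454 minus that in H1694 was 1.14 on the log2 scale (SE 0.06, adjusted p = 7.9e-09). CHGB also rose in the first and fell in the second (0.84 on the log2 scale, SE 0.09, adjusted p = 8.2e-06), and VAMP2 did the reverse (-0.83 on the log2 scale, SE 0.13, adjusted p = 0.00072). PTPRN2 rose in both lines and KIF1A fell in both, KIF1A more in DMS454 (-0.36 on the log2 scale, SE 0.06, adjusted p = 0.00059). No other member was called in the same direction in both. How many of all genes were called in both lines, in either combination of directions, was not computed. Without the library labelled CRISPR 3 of DMS454, 23 members differed, 17 of them among the 18. The 6 added were PCSK1 (1.28), PCSK1N (0.59), RTN1 (0.54), SEZ6L (0.50), PCSK2 (0.45) and STMN2 (-0.85), and RIMS2 was lost (adjusted p = 0.052).

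**Figure D3:**
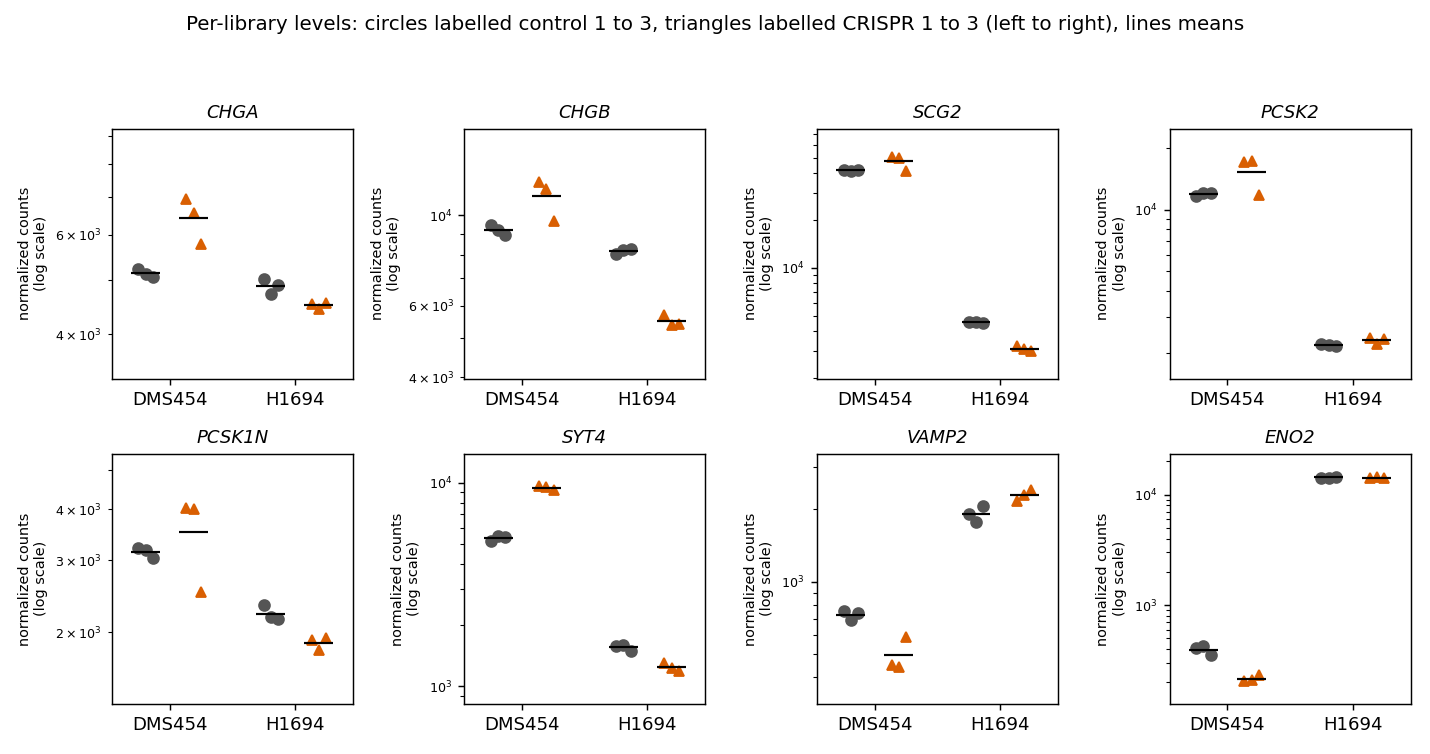
Normalized counts (log axis, its own range in each panel) of 8 genes in the libraries labelled control (circles) and labelled CRISPR (triangles) of DMS454 and H1694, each arm ordered from replicate 1 to 3 with its mean as a line. The library labelled CRISPR 3 of DMS454 lies within or below the controls for SCG2, PCSK2 and PCSK1N and beside the other 2 labelled CRISPR for SYT4 and ENO2, and CHGB and SYT4 differ in opposite directions in the 2 lines.

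Across the 4 lines, 18 members were tested in each and CHGB alone was called in all 4, lower in A549 and H1694 and higher in H1299 and DMS454. The share of all genes called in all 4 lines was not computed. CADPS, CALCA, GRP, PCSK1, PCSK2, PTPRN, SCG3, SEZ6, SEZ6L, STMN2, SV2A, SYT4 and TAGLN3 passed the filter in the small cell lines only. SNAP25 fell in A549 and H1694, rose in H1299 and was not called in DMS454, and SYT1 fell in A549 and DMS454, rose in H1299 and was not called in H1694. SYP, one of the standard diagnostic markers, was not called in any line, with log2 fold changes of -0.15, 0.22, -0.053 and -0.047 in A549, H1299, DMS454 and H1694 and SEs of 0.13, 0.17, 0.05 and 0.04. Exons of 12 members overlap an exon of another annotated gene, on the opposite strand for 9 of them (UCHL1, SYP, SYT1, STX1A and RAB3A among these) and on the same strand for 4 (SYT7, VAMP2, RIMS2 and SYN1). The libraries were strand-specific, but the strand setting of the counting is not given in the sources used here.

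**Figure D4:**
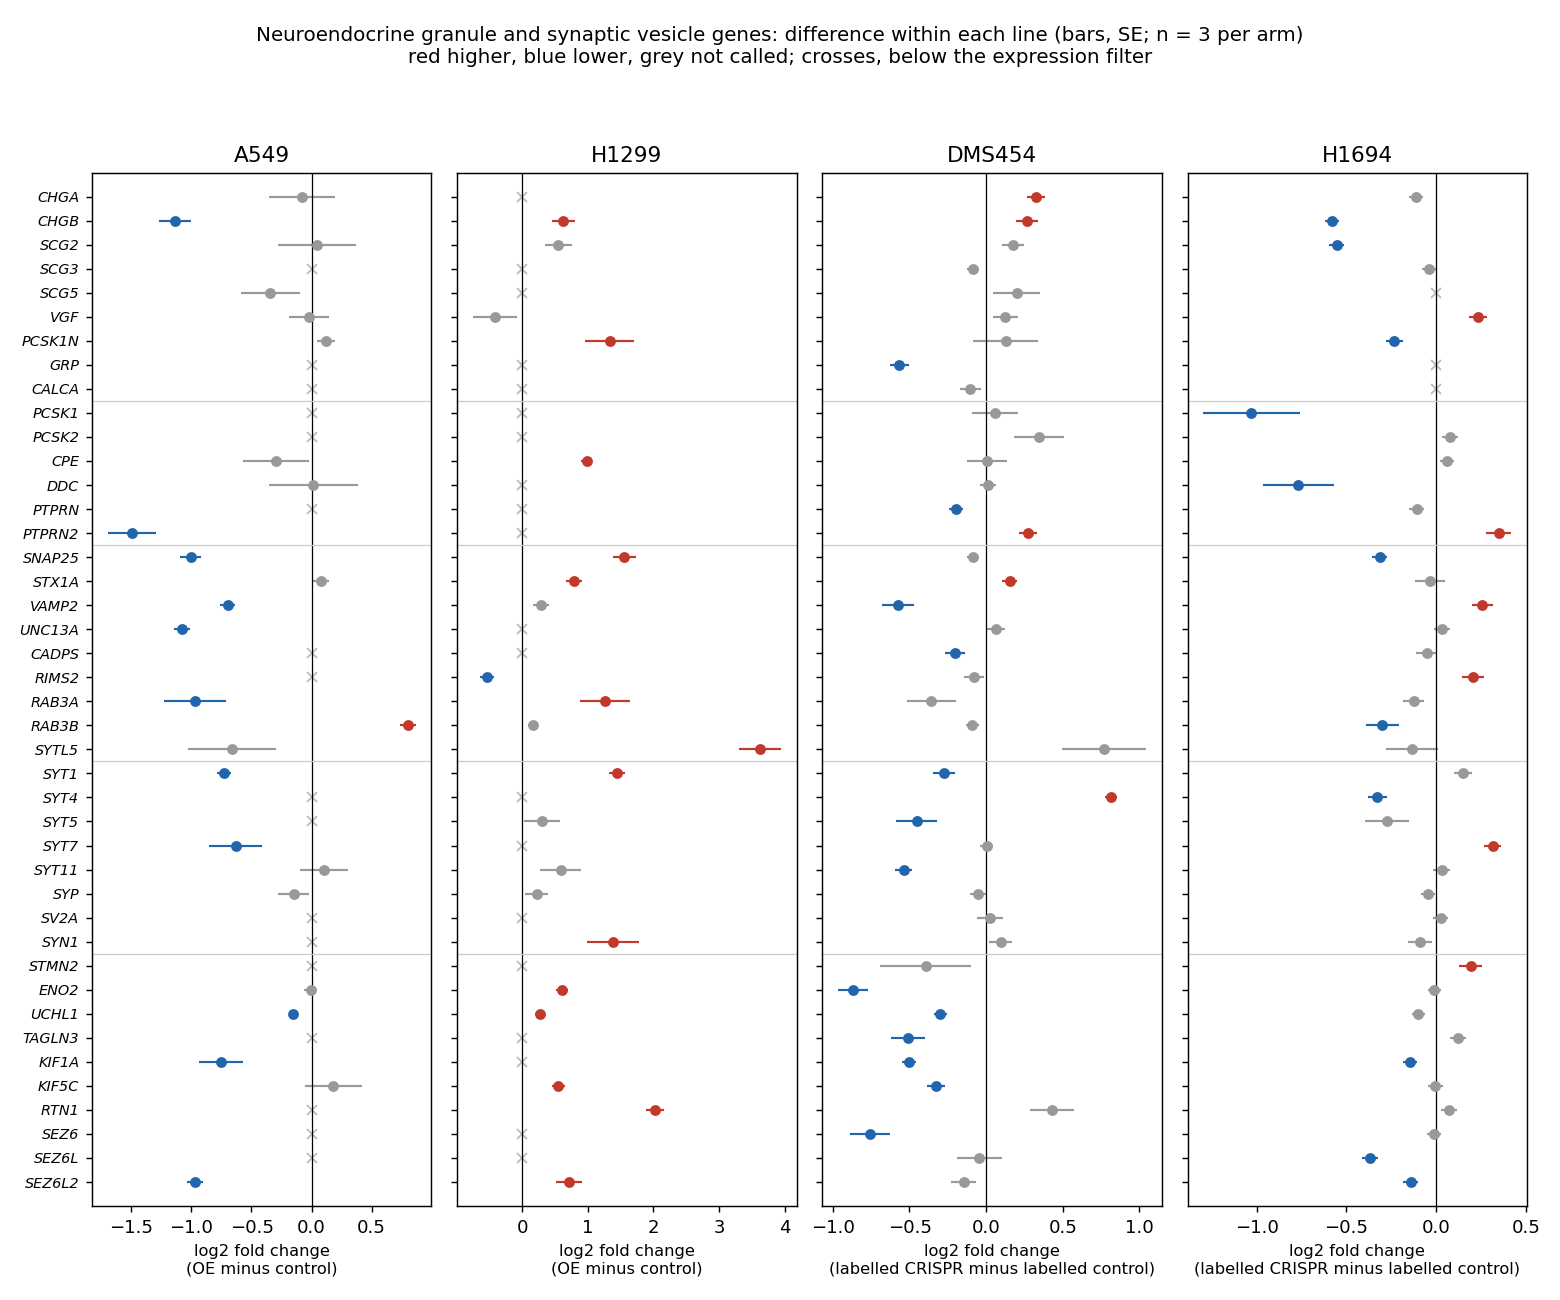
Log2 fold change of each of the 42 genes within A549, H1299 (OE minus control), DMS454 and H1694 (labelled CRISPR minus labelled control), with SE (n = 3 per arm, a separate horizontal range in each panel). Red points are higher and blue points lower at adjusted p under 0.05, grey points were not called and crosses mark genes not tested. Genes are grouped from top to bottom as cargo, processing and granule membrane, fusion machinery, synaptotagmins and vesicle membrane, and neuronal cytoplasm and surface. Most called points lie left of zero in A549 and right of it in H1299.

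Other genes of the secretory pathway, in lists that hold none of the 42, were read in the same fits, where the median over all genes lay between -0.0019 and 0.00176. Counts in these lists stand against 22.5% of all genes higher and 21.9% lower in A549, 13.5% and 15.3% in H1299, 9.15% and 9.72% in DMS454, and 8.73% and 8.9% in H1694. In the list of further fusion and priming machinery 5 of 27 tested genes were higher and 10 lower in A549 (median -0.12), and 3 of 25 were higher and 1 lower in H1299 (median 0.13). DMS454 had 2 of 29 higher and 6 lower (median -0.085), and H1694 5 of 33 higher and 9 lower (median -0.13). The calcium sensor DOC2B fell in A549 from 605 ± 70.6 to 125 ± 10.2 (-2.26 on the log2 scale, SE 0.09, adjusted p = 3.9e-25). Complexin 2 (CPLX2), a SNARE clamp, fell in A549 from 23534 ± 2201 to 9487 ± 1153 and in DMS454 (-0.58). Complexin 1 (CPLX1) fell in H1694 (-0.72). In the list of vesicle membrane proteins and Rab effectors 3 of 19 tested genes were higher and 9 lower in A549 (median -0.22), and 5 of 17 were higher and 2 lower in H1299 (median 0.17). For DMS454 the list gave 3 of 18 higher and 1 lower (median -0.017), and H1694 7 of 24 higher and 4 lower (median 0.0058). SLC18A2, the monoamine transporter of vesicles, rose in DMS454 from 1006 ± 19.96 to 3009 ± 164 (1.58 on the log2 scale, SE 0.05, adjusted p = 7.7e-09). RAB27B, a GTPase of the kind that SYTL5 binds, rose in H1299 from 67.6 ± 2.67 to 195 ± 33.3 (1.50 on the log2 scale, SE 0.16, adjusted p = 0.00041).

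Among peptide hormones and neuropeptides 3 of 8 tested genes were higher and 1 lower in A549 (median 0.17), and 3 of 7 were higher and 1 lower in H1299 (median 0.60). The counts in DMS454 were 3 of 12 higher and 0 lower (median -0.26), and H1694 1 of 11 higher and 2 lower (median 0.11). Neurotensin (NTS) fell in A549 from 2033 ± 164 to 316 ± 70.1 (-2.70 on the log2 scale, SE 0.20, adjusted p = 0.00046), and the parathyroid hormone-like peptide PTHLH rose in H1299 (0.75) and H1694 (1.65). Adrenomedullin (ADM) fell in the same 2 lines (-1.89 and -1.20). Of the genes of peptide processing and granule biogenesis 1 of 20 tested genes were higher and 9 lower in A549 (median -0.12), and 5 of 17 were higher and 0 lower in H1299 (median 0.11). DMS454 showed 2 of 19 higher and 5 lower (median -0.042), and H1694 2 of 18 higher and 4 lower (median -0.041). The convertase PCSK4 fell in A549 (-0.71) and rose in H1299 (1.11), and HID1, needed to form dense-core granules, fell in A549 (-0.86). Of neuronal cytoskeleton and transport genes 8 of 17 tested genes were higher and 3 lower in A549 (median 0.24), and 5 of 17 were higher and 2 lower in H1299 (median 0.33). In DMS454 they were 0 of 22 higher and 8 lower (median -0.042), and H1694 3 of 22 higher and 5 lower (median -0.034). The motor KIF3C rose in A549 (0.95) and H1299 (0.83), the adhesion molecule NCAM1 fell in DMS454 (-0.70), and doublecortin (DCX) fell in H1694 (-0.52).

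In the short list of monoamine synthesis and breakdown 0 of 4 tested genes were higher and 3 lower in A549 (median -1.08), and 0 of 4 were higher and 1 lower in H1299 (median 0.25). There were in DMS454 1 of 7 higher and 2 lower (median 0.09), and H1694 1 of 4 higher and 1 lower (median -0.11). The monoamine oxidase MAOA fell in A549 (-1.45), and the noradrenaline enzyme DBH fell in DMS454 (-0.86) and rose in H1694 (1.03). Among regulators of the neuroendocrine state 2 of 6 tested genes were higher and 2 lower in A549 (median 0.0059), and 0 of 4 were higher and 1 lower in H1299 (median -0.14). Those of DMS454 were 4 of 14 higher and 1 lower (median -0.03), and H1694 1 of 12 higher and 0 lower (median -0.035). REST rose in A549 from 627 ± 19.9 to 792 ± 35.3 (0.34 on the log2 scale, SE 0.06, adjusted p = 5.7e-06), where most called members were lower. It was at 754 ± 48.1 and 662 ± 37.3 in H1299 (adjusted p = 0.14). The part of REST in the result was not tested. NEUROD1 was at 21706 ± 80.5 and 21074 ± 359 in H1694 (adjusted p = 0.43) and was not called there. It rose in DMS454 from 68.2 ± 6.39 to 113 ± 19.9 (0.71 on the log2 scale, SE 0.17, adjusted p = 0.012), from a level far below that in H1694.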

How the data were processed

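Per the submitters' processing notes, reads of the 24 libraries passed through CASAVA, FastQC, Trim Galore, STAR (build hg38) and DESeq2; versions, counter and strand setting are not given in the sources used. The deposited signal, per library and as the authors' mean over libraries, is gene counts divided by DESeq2 size factors, as the values themselves show: 100% of values gave whole reads within 0.01. The deposited log2 fold changes, p-values and score (Wald statistic), per the file headers, come from the authors' DESeq2 run and are not used here.

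Genes were named through GENCODE 29, and 45 rows of the Y copy of the pseudoautosomal region were left out. Normalized counts were transformed as log2(value + 1) and tested within each line, over genes whose mean reached 10 in an arm, by limma 3.58.1 (trend, robust; R 4.3.3) adjusted by Benjamini-Hochberg, with calls under 0.05. Fold changes of low genes are understated on this scale. Differences between 2 lines were contrasts of the 4 arm means. TPM were computed from the recovered reads and the union of exons. The 42 genes and the other gene lists were chosen with earlier results of these data known, and all 42 could be named. Values of each library are given for called genes that changed at least 2-fold with a mean of at least 50, for the 8 most abundant members of DMS454 and H1694, and for VGF in H1299, which was chosen after its values were seen. From each other list up to 3 called genes a line with the largest change were named. Alternatives were a pseudocount of 5, no filter, a filter at 50, TMM scaling, edgeR 4.0.16 and DESeq2 1.42.0 on recovered reads, a replicate block, a minimum log2 fold change of 1 and leaving out libraries.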

Additional observations from a re-analysis of the deposited data

Results flagged for a closer look

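These genes are listed because a test of the difference itself, between the changes of 2 lines, passed at adjusted p under 0.05 (limma interaction contrast). Each value is the log2 fold change in the first line minus that in the second.

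Between A549 and H1299 the difference was negative for SYTL5 (-4.29), SNAP25 (-2.56), RAB3A (-2.24), SYT1 (-2.17), CHGB (-1.76), SEZ6L2 (-1.68), CPE (-1.28), PCSK1N (-1.22), VAMP2 (-0.99), STX1A (-0.71), ENO2 (-0.61) and UCHL1 (-0.42). It was positive for RAB3B alone (0.64), the vesicle GTPase that rose in A549. SYTL5, CPE, STX1A, ENO2 and PCSK1N were called in H1299 and VAMP2 in A549, while the other 6 genes of negative difference were called in both lines with opposite signs. The difference of PCSK1N was lost when any single library was left out, H1299 control 1 and OE 1 excepted. In H1299, SYTL5 and RAB3A passed the filter through the OE arm alone.

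Between DMS454 and H1694, with the arms as labelled, the difference was positive for SYT4 (1.14), SYTL5 (0.91), CHGB (0.84), DDC (0.78), SCG2 (0.73), CHGA (0.44) and SNAP25 (0.23). It was negative for ENO2 (-0.86), VAMP2 (-0.83), SEZ6 (-0.74), TAGLN3 (-0.63), SYT11 (-0.57), SYT1 (-0.43), KIF1A (-0.36), KIF5C (-0.32), SYT7 (-0.31), RIMS2 (-0.28) and UCHL1 (-0.20). The values of SCG2 and DDC include the DMS454 library labelled CRISPR 3, which stood below the controls for both; without it they were 0.82 and 0.85. The differences of SYTL5, UCHL1 and RIMS2 were lost when single libraries of either line were left out, and that of DDC with the replicate block.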

How the results depend on the processing

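With 3 libraries per arm and changes that are often small, the number of called members rested on single libraries in 3 of the lines. When each library was left out in turn, 1 to 2 members rose and 10 to 11 fell in A549, 8 to 15 rose and 1 fell in H1299, 3 to 15 and 9 to 17 in DMS454, and 4 to 5 and 6 to 14 in H1694. The number of members that differed between lines was 12 to 13 (A549 against H1299) and 15 to 23 (DMS454 against H1694). Asking for a log2 fold change of at least 1 left 0 rises and 4 falls in A549, 7 and 0 in H1299, 0 and 0 in DMS454, and 0 and 1 in H1694, by construction. With no filter A549 had 2 rises. Of the members that the filter left out there, only PTPRN had all OE libraries above all controls. It was at 1.48 ± 1.67 normalized counts in the controls and 9.34 ± 2.29 with OE. Calls of single genes under that setting are not given here. Of the called members, 11 of 12 in A549, 8 of 15 in H1299, 12 of 18 in DMS454 and 9 of 17 in H1694 were called under every alternative that tested them, that minimum fold change left aside, and no call reversed. The remaining counts, under a pseudocount of 5, a filter at 50, TMM scaling, edgeR and DESeq2, lay within 1.5 times the reported ones. The filter at 50 raised the share of all genes called as well, from 44.4% to 53.0% in A549 and from 28.8% to 35.3% in H1299.

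Libraries share replicate numbers. As deviations from their arm means, same-numbered libraries correlated at -0.023, -0.065 and -0.014 in A549 and at -0.54, -0.18 and -0.31 in H1299. The values were 0.017, 0.027 and 0.0096 in DMS454 and 0.029, -0.085 and 0.12 in H1694. Libraries of different number correlated at -0.040 to 0.059 in A549 and -0.21 to 0.39 in H1299. In DMS454 they lay at -0.029 to 0.011 and in H1694 at -0.17 to 0.16. With 3 libraries an arm these values cannot exclude a pairing. With the replicate block 8 members rose and 0 fell in H1299, 1 and 11 in A549, 4 and 12 in DMS454, 8 and 13 in H1694, and 12 and 16 members differed between lines.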
